A study of Mus musculus with 2 samples.

Results

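The splicing factor genes examined here were the 65 protein-coding genes, of 21853 in the mouse gene models, whose symbols begin with Prpf, Sf3a or Sf3b, Snrp, Srsf or Hnrnp. They comprised 13 Prpf genes, 9 Sf3 genes, 12 Snrp genes, 11 Srsf genes and 20 Hnrnp genes. The rule used names alone and no measured value. Earlier results of these data were known when the genes and lists were chosen. Their chromatin was assayed by ATAC-seq, in which the Tn5 transposase cuts and tags accessible DNA. The cells were monocytes of peripheral blood from adult C57BL/6J mice aged 5 to 6 weeks, with sex not collected and no treatment or genotype named. There was 1 group of 2 biological replicates of 50000 cells each, no control group, and 1 donor identifier for both, so it is not known whether separate animals were used and the spread between replicates may be technical.

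Splicing removes introns from the primary transcript. The spliceosome that does so is built from small nuclear ribonucleoproteins (snRNPs), in which U1 recognises the 5′ splice site, U2 the branch point, and the U4/U6.U5 tri-snRNP joins to form the catalytic centre. The Snrp genes encode the Sm ring and other proteins of these particles, the Sf3a and Sf3b genes encode subunits of U2, and most Prpf genes encode proteins of the tri-snRNP or its assembly. SR proteins (Srsf) mostly promote the use of nearby splice sites, and hnRNP proteins bind nascent RNA and often act in the opposite direction. In blood, SF3B1 and SRSF2 are known for recurrent mutations in myeloid neoplasms, SRSF2 above all in chronic myelomonocytic leukaemia.

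The measured values were the deposited peaks, each with the authors' own fold enrichment, a linear ratio over background, and −log10 p. Overlapping peaks were joined into regions, and a promoter was called open where a region lay within 1 kb of a coding start of the gene. The conservative set, made by the authors from both replicates, held 28438 regions. Replicate 1 had 39579 regions and replicate 2 had 39886 in the pseudoreplicated sets from which the replicate values below come. The sequencing depth is unknown. Of 11 monocyte marker genes fixed for this work, 10 had an open promoter in the conservative set, among them Spi1, Csf1r, Ly6c2 and Lyz2, and Ccr2 had none. Promoters of other blood cells' markers were open for 1 of 5 T cell genes (Cd3d), 1 of 4 B cell genes (Pax5), 0 of 2 NK cell genes, 0 of 6 neutrophil genes, 1 of 4 erythroid genes (Klf1) and 0 of 4 platelet genes. In the replicates' own looser sets Ncr1 of NK cells (7.15 and 4.23), S100a8 of neutrophils (3.08 and 3.43) and Itga2b of platelets (3.49 and 2.64) also had promoter regions. Cd79a of B cells (2.60) and Hbb-bt of erythroid cells (2.60) had one in replicate 1 only. Klf1 had none in either replicate's set, and the monocyte gene Fcgr1 had none in replicate 2. The part of other cells in the results was not tested.

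The 8 promoters printed first carry the sequence patterns described next, and their 250 bases before a RefSeq promoter start (GRCm38.p6) are shown. This promoter start can differ from the 5′ end of the RefSeq gene, which is called the RefSeq start below. The 2 positions differ for Snrpc, Hnrnpa1, Hnrnpa2b1 and Srsf2. Capitals mark the searched letters on either strand. These were CCGGAAG, bound by ETS factors, and GCCAAT, a form of the CCAAT box bound by NF-Y. The others were GGGCGG, the GC box bound by SP and KLF factors, TATAAA, the TATA box, and ACTACAA, for ZNF143. Runs that overlap are merged in capitals. Sf3b2 (chr19:5295458-5295707, minus strand), Sf3b6 (chr12:4817358-4817607, plus strand) and Snrpc (chr17:27839837-27840086, plus strand) show ETS letters near the start of genes for U2 and U1 proteins. Prpf8 (chr11:75486527-75486776, plus strand), Hnrnpa1 (chr15:103240147-103240396, plus strand) and Hnrnpa2b1 (chr6:51469895-51470144, minus strand) show the CCAAT box. Srsf2 (chr11:116853095-116853344, minus strand) and Srsf3 (chr17:29032410-29032659, plus strand) show the TATA box, and Srsf2 a run of GC boxes.
Sf3b2: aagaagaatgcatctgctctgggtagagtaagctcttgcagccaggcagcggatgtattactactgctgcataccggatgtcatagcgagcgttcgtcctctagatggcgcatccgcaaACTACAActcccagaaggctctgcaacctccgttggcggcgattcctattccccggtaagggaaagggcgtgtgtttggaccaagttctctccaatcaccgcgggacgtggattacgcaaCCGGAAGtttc
Sf3b6: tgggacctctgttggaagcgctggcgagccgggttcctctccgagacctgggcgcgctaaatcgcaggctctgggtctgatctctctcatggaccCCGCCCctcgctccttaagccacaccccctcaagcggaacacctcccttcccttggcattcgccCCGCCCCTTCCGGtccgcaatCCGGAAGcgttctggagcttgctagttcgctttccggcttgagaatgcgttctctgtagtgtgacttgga
Snrpc: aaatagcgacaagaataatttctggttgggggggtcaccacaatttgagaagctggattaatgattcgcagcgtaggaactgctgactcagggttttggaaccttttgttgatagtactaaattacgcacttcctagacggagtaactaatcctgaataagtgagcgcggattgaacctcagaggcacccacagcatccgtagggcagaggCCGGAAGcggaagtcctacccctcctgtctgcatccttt
Prpf8: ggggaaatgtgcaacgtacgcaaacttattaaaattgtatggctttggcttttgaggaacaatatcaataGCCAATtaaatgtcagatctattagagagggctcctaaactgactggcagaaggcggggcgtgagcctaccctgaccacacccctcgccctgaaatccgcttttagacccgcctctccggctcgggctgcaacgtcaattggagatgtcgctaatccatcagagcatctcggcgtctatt
Hnrnpa1: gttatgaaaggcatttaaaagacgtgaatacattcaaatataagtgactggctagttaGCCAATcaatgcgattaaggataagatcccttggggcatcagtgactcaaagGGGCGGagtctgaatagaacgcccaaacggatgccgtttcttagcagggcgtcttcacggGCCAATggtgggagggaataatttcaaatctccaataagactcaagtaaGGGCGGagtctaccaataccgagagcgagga
Hnrnpa2b1: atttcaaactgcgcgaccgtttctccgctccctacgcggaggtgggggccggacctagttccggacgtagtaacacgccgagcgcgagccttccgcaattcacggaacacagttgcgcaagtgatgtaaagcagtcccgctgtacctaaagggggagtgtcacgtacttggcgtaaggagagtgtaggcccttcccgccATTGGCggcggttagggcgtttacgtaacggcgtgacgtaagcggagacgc
Srsf2: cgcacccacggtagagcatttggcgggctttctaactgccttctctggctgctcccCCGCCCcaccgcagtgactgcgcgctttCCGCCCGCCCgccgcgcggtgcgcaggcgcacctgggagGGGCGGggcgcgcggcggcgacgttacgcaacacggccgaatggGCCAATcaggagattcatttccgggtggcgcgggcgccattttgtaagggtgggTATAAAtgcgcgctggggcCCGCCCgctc
Srsf3: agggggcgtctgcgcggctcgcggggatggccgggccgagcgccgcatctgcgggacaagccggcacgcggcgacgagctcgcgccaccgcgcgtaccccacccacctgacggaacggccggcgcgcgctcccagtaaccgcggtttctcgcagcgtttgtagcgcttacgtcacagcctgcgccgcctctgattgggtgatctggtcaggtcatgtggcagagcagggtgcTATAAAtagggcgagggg

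RefSeq promoters, of 300 bases ending 50 bases after the start, were on hand for 57 of the 65 genes. Those not matched included Hnrnpll, Hnrnpul2, Prpf18, Sf3b4, Sf3b5, Snrpb and Snrpd1. The ETS letters were present for 20 of the 57 genes (35.1%), against 13.4% of all 16515 genes in the table and 23.3% of the 8089 with an open promoter. The families differed: 6 of 7 Sf3 genes held them (Sf3a1, Sf3a2, Sf3a3, Sf3b2, Sf3b3 and Sf3b6), 4 of 10 Snrp, 4 of 11 Prpf, 4 of 11 Srsf, and 2 of 18 Hnrnp (Hnrnpd and Hnrnpf). The searched form of the CCAAT box, GCCAAT, was present for 21 of 57 (36.8%), against 19.1% of all genes and 23.8% of open ones. Its distribution was different, with 11 of 18 Hnrnp genes, 6 of 11 Prpf, 2 of 10 Snrp, 2 of 11 Srsf and 0 of 7 Sf3. A CCAAT after a base other than G was not counted, and the printed Sf3b2 and Srsf3 promoters hold one. The counts therefore describe GCCAAT only, not every CCAAT box. The GC box was found for 39 of 57 genes (68.4%), close to its share of open genes (69.5%), and within them it was found in 10 of 11 Srsf and 14 of 18 Hnrnp genes but in 5 of 10 Snrp genes. TATA letters occurred in 7 genes (12.3%, against 14.3% of all genes and 8.07% of open ones). Those of Srsf2 and Srsf3 lay 29 and 18 bases before the promoter start at their first base. The RefSeq start of Srsf2 lies 581 bp upstream of its nearest GENCODE start, so its TATA letters fall after that RefSeq start. The RefSeq start of Srsf3 lies 32 bp downstream of its GENCODE start, so its TATA letters fall after the GENCODE start. These letter matches are descriptions of the reference sequence and were not measured as bound sites.

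**Figure D1:**
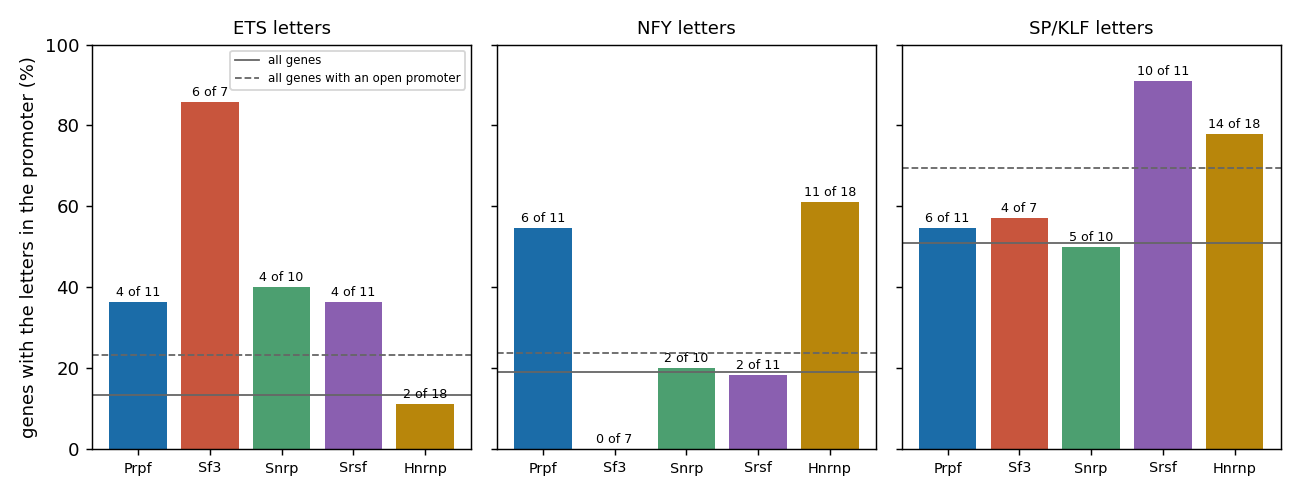
Share of genes (vertical axis, percent) whose RefSeq promoter holds the ETS, NFY (GCCAAT) or SP/KLF (GC box) letters on either strand, by family, with the count over each bar. The solid line is the share of all genes and the dashed line that of genes with an open promoter. The ETS letters are most frequent in Sf3 genes (6 of 7), and GCCAAT in Hnrnp genes (11 of 18).

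A string that PU.1 prefers, GAGGAAGT, was found in the promoters of 3 splicing factor genes (5.26%, against 3.62% of all genes and 3.94% of open ones), namely Hnrnpf, Hnrnph2 and Sf3a1. PU.1 is the ETS factor that directs the monocyte lineage. Of the remaining strings, AAGATGGC for YY1 was found for 3 genes (5.26%, against 3.63% of all and 6.07% of open genes). GCGCATGCG for NRF1 was found for 3 (against 2.73% and 4.69%), ACTACAA for ZNF143 for 3 (against 4.28% and 5.64%) and TGACGTCA for CREB for 2 (3.51%, against 2.64% and 4.02%). CACGTG, the E-box, was found for 9 (15.8%, against 9.18% and 12.4%). Open splicing factor genes with the ETS letters had a median promoter fold of 9.93 (20 genes) and those without 8.49 (34 genes). With the GC box the median was 8.43 (37 genes) and without it 11.2 (17 genes). With and without GCCAAT it was 8.92 (21 genes) and 8.93 (33 genes). No test was made of these differences, because the genes are not replicates.

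Nearly all splicing factor promoters were open. In the conservative set 61 of 65 (93.8%) had an open promoter, where 46.6% of all protein-coding genes did. Because CpG-rich promoters are open more often, the richest of 5 equal classes of genes by CpG content around the start gives a closer comparison, and 79.0% of its 4370 genes were open. Of the 65 genes, 36 (55.4%) fall in that class and 35 of these were open. Another 20 fall in the next class, where all 20 were open against 73.6% of its genes. Most members thus lie in CpG-rich classes, so base composition and membership are tied. Open promoters numbered 62 (46.2% of all genes) in the thresholded set, 63 (54.8%) in the replicated set and 63 (54.2%) in the pseudoreplicated set of the series. Replicate 1 alone had 62 (50.5%) and replicate 2 alone 63 (51.3%), and 62 were open in both (48.6% of all genes). In the stricter set of each replicate 59 (39.3%) and 61 (40.7%) were open. So the count of splicing factor promoters moved by at most 4 between sets whose share of all genes ranged from 39.3% to 54.8%.

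The promoters not open in the conservative set were those of Srsf12, Snrpn, Sf3b5 and Prpf39, and the values at each were different in kind. Srsf12, an SR protein gene, had no promoter region in any of the 8 sets, and the nearest conservative region lay 38.2 kb away. Snrpn encodes SmN, an imprinted gene whose product replaces SmB chiefly in neurons. No region lay within 1 kb of its starts in replicate 1. Replicate 2 had a weak one (fold 3.17) and the replicated set one of fold 2.90 (chr7:60004009-60004664), and neither covered a start. Snrpb, which encodes SmB, was open with a fold of 8.44 in replicate 1 and 8.49 in replicate 2 (mean 8.46 ± 0.03, SD, n = 2). Prpf39, a U1-associated factor, had a fold of 4.19 in replicate 1 and 7.42 in replicate 2, and was present in the thresholded set of the series (fold 6.77, chr12:65036133-65036808) but not in the conservative one. Sf3b5, a small SF3B subunit, had a strong region at fold 13.3 (chr10:13008149-13009052), with 11.96 in replicate 1 and 12.3 in replicate 2, that overlapped its exon 3.04 kb after the GENCODE start. The RefSeq start of Sf3b5 lies inside that region, 3107 bp from the GENCODE start, so its closed call rests on the gene model.

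Among open promoters, the splicing factor genes were moderately strong and wide. Their median fold was 8.92 (quartiles 7.78 and 10.5), against 8.34 (6.43 and 10.5) for all 10174 open promoters and 8.37 for the open ones of the richest CpG class. Of the 61 open ones, 15 were in the top 25% of all open promoters by fold, 38 were above their median and 7 were in the bottom 25%. The median width of the region was 865 bp against 680 bp for all open promoters and 731 bp in the richest CpG class. Regions over 1000 bp made up 31.1% of the splicing factor promoters (19 of 61) and 16.2% of all open ones. The summit, the position of the highest signal, lay a median 61 bp upstream of the nearest start, with 51 of 61 (83.6%) within 200 bp of it, against 80.5% of all open promoters.

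**Figure D2:**
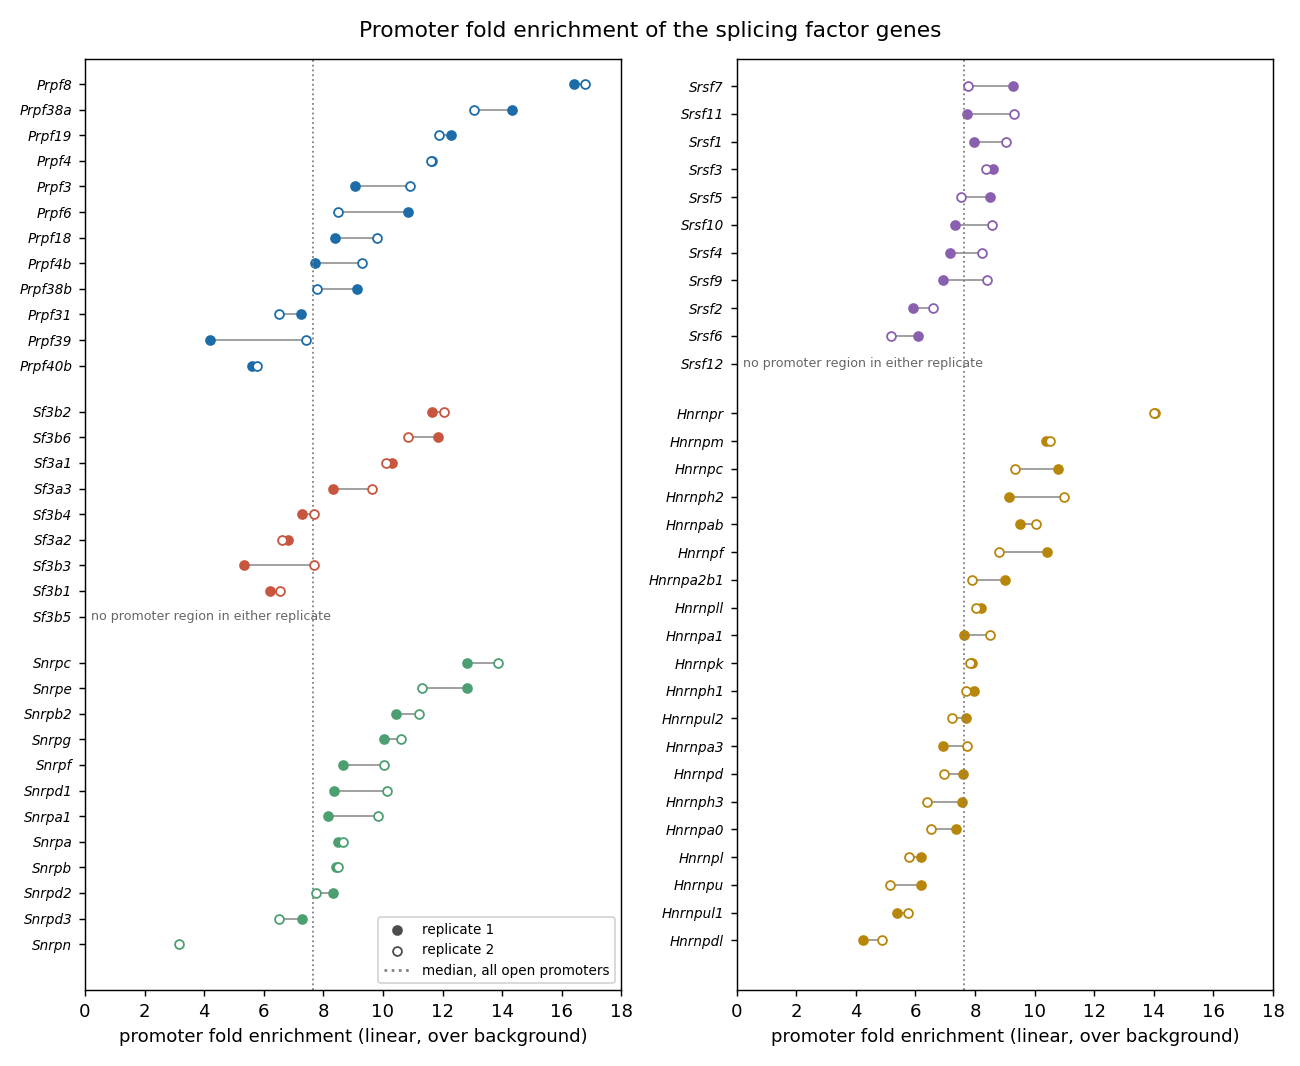
Promoter fold enrichment (horizontal axis, linear ratio over background) of 64 of the genes by family, with replicate 1 as filled and replicate 2 as open circles joined by a line. The dotted line is the mean of the replicates' medians over all genes open in both. Prpf8 stands at the right end in both replicates (16.4 and 16.8), Hnrnpdl at the left among genes open in the conservative set (4.23 and 4.86), and Prpf39 has the widest gap (4.19 and 7.42).

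The strongest promoter belonged to a gene of the tri-snRNP. Prpf8, the scaffold protein of the spliceosome's catalytic centre, had a fold of 16.4 in replicate 1 and 16.8 in replicate 2 (mean 16.6 ± 0.27, SD, n = 2), and its region (chr11:75486444-75486965) ranked above 99.9% of open promoters in the conservative set while being only 522 bp wide. Prpf38a, a factor of spliceosome activation, had 14.3 and 13.1 (13.7 ± 0.89, SD, n = 2). Prpf4, a U4/U6 protein, had 11.7 and 11.6 (11.6 ± 0.03, SD, n = 2). These genes did not overlap in fold with Prpf31, the U4/U6 protein whose human counterpart is mutated in retinitis pigmentosa, at 7.23 and 6.51 (6.87 ± 0.51, SD, n = 2). All 9 genes listed here under the tri-snRNP, Prpf38a among them, were open, with a median fold of 10.4. Prpf19, a ubiquitin ligase of the spliceosome, had 12.3 and 11.9 (12.1 ± 0.28, SD, n = 2). Prpf40b, a U1-associated protein, was weak at 5.60 and 5.76 (5.68 ± 0.12, SD, n = 2).

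Strong and weak promoters were found side by side within U2. Sf3b2 had a fold of 11.6 in replicate 1 and 12.1 in replicate 2 (11.8 ± 0.30, SD, n = 2), and Sf3b6, which contacts the branch point adenosine, had 11.9 and 10.8 (11.3 ± 0.73, SD, n = 2). Both carry the ETS letters printed above. Snrpb2, the U2B″ protein, had 10.4 and 11.2 (10.8 ± 0.54, SD, n = 2). Sf3b1, the subunit that holds the branch point and is mutated in myelodysplasia, had 6.20 and 6.54 (6.37 ± 0.24, SD, n = 2), below each of these in both replicates. It lay at percentile 27.6 of open promoters. Sf3b3 differed between the replicates, at 5.34 and 7.68 (6.51 ± 1.66, SD, n = 2). So proteins that sit in equal numbers in 1 complex had promoter folds that differed by more than the replicates did.

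Promoters of the Sm ring genes differed in fold and in width. Snrpe had a fold of 12.8 and 11.3 (12.1 ± 1.05, SD, n = 2) in a region of 831 bp, and Snrpg 10.05 and 10.6 (10.3 ± 0.40, SD, n = 2). Of the 8 Sm ring genes 7 were open, with a median fold of 9.99 and a median width of 626 bp. For U1, Snrpc, the protein that contacts the 5′ splice site, had 12.8 and 13.9 (13.3 ± 0.72, SD, n = 2) in a region of 459 bp (chr17:27839830-27840288), and Snrpa, the U1 protein that binds a stem loop of the U1 RNA, had 8.50 and 8.66. Among the Sm genes, Snrpd2 (8.34 and 7.77, 1095 bp) and Snrpd3 (7.30 and 6.51, 958 bp) had the widest regions and the lowest folds of those open.

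SR protein promoters were broad. None of the 10 open ones was in the top 25% of open promoters, and their mean folds over the replicates lay between 5.63 (Srsf6) and 8.52 (Srsf7). Srsf1, a founding SR protein, had 7.97 in replicate 1 and 9.04 in replicate 2 (8.50 ± 0.76, SD, n = 2). Srsf3, the smallest SR protein, had 8.59 and 8.36 (8.47 ± 0.17, SD, n = 2), Srsf5 8.49 and 7.52 (8.005 ± 0.68, SD, n = 2) and Srsf7 9.27 and 7.76 (8.52 ± 1.07, SD, n = 2). These 4 overlapped, so their order is not resolved by 2 replicates. Srsf2 (5.93 and 6.60, 6.27 ± 0.47, SD, n = 2) and Srsf6 (6.08 and 5.17, 5.63 ± 0.64, SD, n = 2) lay below all 4 in both replicates. The median width was 1205 bp for Srsf and 932.5 bp for Hnrnp, against 709.5 bp for Prpf, 743 bp for Sf3 and 724 bp for Snrp. Of the 11 regions over 1200 bp, 5 were Srsf, 5 Hnrnp and 1 another gene (Sf3a2). These families also differ in CpG content: 9 of 11 Srsf and 14 of 20 Hnrnp genes were in the richest class, against 5 of 13 Prpf, 4 of 9 Sf3 and 4 of 12 Snrp, and the part of CpG content in the width was not tested.

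**Figure D3:**
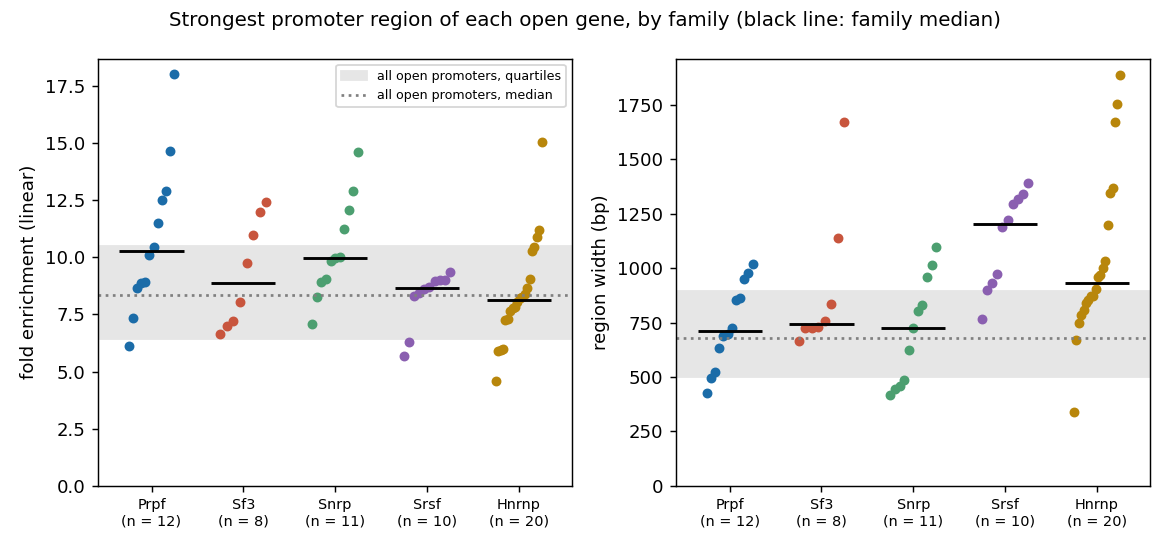
Fold enrichment (left, linear) and width in bp (right) of the strongest promoter region of each open gene in the conservative set, by family, with a black line at the family median. Grey bands and dotted lines give the quartiles and median of all open promoters. Of the 10 Srsf genes, 8 lie between 8.29 and 9.35, around or above the overall median fold (8.34), and 2 below its lower quartile (6.43), and most are above the upper quartile of width (895 bp).

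All 20 Hnrnp promoters were open, and they ran from the weakest to nearly the strongest of the open genes. Hnrnpr had a fold of 14.05 in replicate 1 and 14.01 in replicate 2 (14.03 ± 0.03, SD, n = 2, chr4:136310337-136311142). Hnrnpm had 10.4 and 10.5 (10.4 ± 0.08, SD, n = 2), and Hnrnpc, the core protein of nascent RNA particles, 10.8 and 9.34 (10.1 ± 1.02, SD, n = 2). Hnrnpa2b1 had 8.99 and 7.91 (8.45 ± 0.76, SD, n = 2), Hnrnpa1 7.64 and 8.49 (8.07 ± 0.60, SD, n = 2), and Hnrnpk, a poly(C) binding protein, 7.89 and 7.82 (7.85 ± 0.05, SD, n = 2). The ranges of Hnrnpa1 and Hnrnpa2b1 overlapped, and that of Hnrnpk lay within the range of Hnrnpa1. Hnrnpll, known for its control of CD45 exons in lymphocytes, was open in the monocytes at 8.19 and 8.04 (8.12 ± 0.11, SD, n = 2).

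The weak end of the Hnrnp family was low in both replicates. Hnrnpdl had 4.23 and 4.86 (4.55 ± 0.44, SD, n = 2), and these highest folds came from 2 neighbouring regions, one in each replicate. Hnrnpul1 had 5.38 and 5.75 (5.57 ± 0.26, SD, n = 2), also from 2 neighbouring regions. One (chr7:25754592-25755503) had 5.38 and 5.20, and the other (chr7:25755572-25756442) had 5.75 in each replicate. Hnrnpu, the nuclear scaffold protein, had 6.17 and 5.14 (5.66 ± 0.73, SD, n = 2), and Hnrnpl, a regulator of CD45 exons, 6.20 and 5.80 (6.00 ± 0.29, SD, n = 2). Of these genes, Hnrnpdl stood below the other 3 in both replicates, while Hnrnpu overlapped both Hnrnpul1 and Hnrnpl, which did not overlap each other. Hnrnpf had 5 separate promoter regions at its several starts, and the 2 strongest in the replicates were different ones. Its region at chr6:117900712-117901051 had 10.4 in replicate 1 and 6.84 in replicate 2, and that at chr6:117906400-117907223 had 7.76 and 8.81. Over all 65 genes, 43 had more than 1 coding start (66.2%, against 62.3% of all genes). Of the 61 open ones, 44 had every start inside an open region (72.1%, against 53.2% of all open genes) and 15 had at least 2 promoter regions (24.6%, against 15.3%).

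The replicates differed little, at these genes as at all genes. Across the 62 genes open in both, the median log2 difference (replicate 2 minus replicate 1) was 0.02 with an SD of 0.21, and over all 10627 genes open in both it was −0.01 with an SD of 0.23. None of the 62 differed by over 1 on the log2 scale, and only 9 of the 10627 did (0.08%). The genes that differed most were Prpf39 (0.82), Sf3b3 (0.52), Prpf6 (−0.35, with 10.8 and 8.48), Srsf9 (0.28, with 6.93 and 8.41) and Snrpd1 (0.28, with 8.37 and 10.1). Snrpn was the only gene called in 1 replicate and not in the other. The folds of the replicates correlated across the 62 genes (Pearson's r of log2 folds 0.85, Spearman's rho 0.85), which describes the order of the genes, not independent samples. Across all 10627 genes both values were higher (0.90 and 0.91).

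Many splicing factor promoters were shared with a gene transcribed the other way. Of the 61 open genes, 22 (36.1%) had a head-to-head partner whose start also lay within 1 kb of the region, against 18.4% of all open promoters and 21.7% of those in the richest CpG class. The gap was taken between the closest starts of each pair, whether or not the region covered them. Its median was 139 bp, 19 of 22 regions held both of these starts, and in 11 the summit lay between them. An open region over such a pair cannot be assigned to either gene. Regions over pairs had a median width of 974 bp and a fold of 8.28, against 784 bp and 9.35 for the other 39 open genes.

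Hnrnpa1 shared a region of 1755 bp (chr15:103239279-103241033) with Cbx5, and Hnrnpa2b1 shared one of 1670 bp (chr6:51468848-51470517) with Cbx3. Cbx5 and Cbx3 encode the heterochromatin proteins HP1α and HP1γ, so 2 related hnRNP genes had related partners, with gaps of 616 and 466 bp. Prpf38a was paired with Orc1, the largest subunit of the origin recognition complex (118 bp), and Prpf4 with Cdc26, a subunit of the anaphase promoting complex (155 bp). Hnrnph2, on the X chromosome at 9.13 and 11.0 (10.1 ± 1.31, SD, n = 2), was paired with Gla, the lysosomal α-galactosidase (54 bp). Sf3a1 and Ccdc157 (57 bp) had a fold of 10.3 and 10.1 (10.2 ± 0.14, SD, n = 2). Hnrnpk was paired with Rmi1, of the complex that dissolves recombination intermediates (51 bp). Other pairs named by the rule were Snrpa with BC024978, Srsf7 with Ttc39d, Srsf11 with Lrrc40 and Snrpd2 with Qpctl. Srsf2 and Mfsd11 shared a region of 1339 bp across a gap of 726 bp, and Prpf31 and Tfpt a region of 633 bp across 56 bp.

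**Figure D4:**
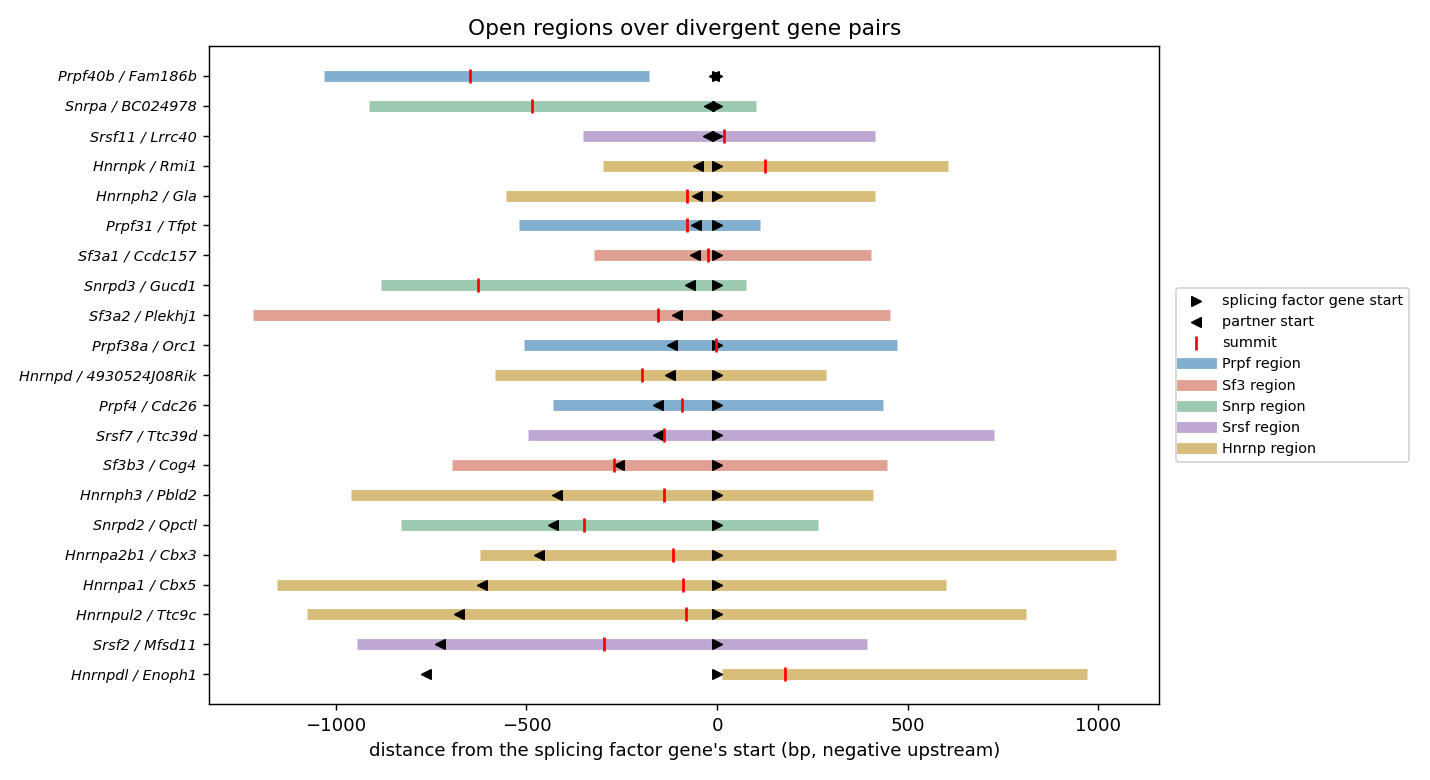
The open region over 21 of the head-to-head gene pairs (coloured bar), drawn by distance in bp from the splicing factor gene's start, with the partner's start (left-pointing triangle) and the summit (red line), for the closest pair of starts and ordered by their gap. The Hnrnpa1 and Hnrnpa2b1 regions are among the widest (1755 and 1670 bp) and cover both starts.

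A distal region lies over 1 kb from every coding start and was given to the nearest start within 100 kb, which does not show that it acts on that gene. In the conservative set, 19 of 65 splicing factor genes (29.2%) had at least 1, against 33.6% of all genes. Together they had 32 regions, 0.492 per gene against 0.745 over all genes. The direction of the first comparison depended on the gene model: with only the outermost 5′ end as start 26 genes (40.0%) had a distal region, against 35.4% of all genes, and with RefSeq starts 28 (43.1%), against 37.8%. Replicate 1 alone gave 25 genes (41.7% of all genes) with 50 regions and replicate 2 gave 21 (41.5% of all genes) with 50 regions. The stretch of genome nearest to each gene was shorter for the splicing factor genes (median 30.6 kb against 46.4 kb). Per megabase of that stretch there were 12.03 distal regions, against 10.2 over all genes. So the lower count per gene was not seen per length of DNA.

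Of the 32 distal regions, 22 lay outside protein-coding genes, 7 in introns and 3 in exons, with noncoding genes not considered. These shares were not computed over all distal regions. Inside the gene to which they were given lay 3 (9.38%, against 42.2% over all genes' distal regions). The 32 had a median fold of 6.61 against 6.06 for all distal regions, and a median width of 388 bp against 379 bp. Both replicates held 29 of the 32, a share not computed over all distal regions. Hnrnpa3 had 4, more than any other splicing factor gene, and 8 in each replicate's set. The strongest lay 74.1 kb upstream (chr2:75584901-75585296) with 9.66 and 8.73 (9.20 ± 0.66, SD, n = 2), and another lay in an intron of Nfe2l2, the oxidative stress regulator, 20.6 kb downstream, with 6.37 and 8.04. Sf3b5 had 3, counting the region at its RefSeq start, and the one 8.08 kb upstream (chr10:12997097-12997395) had 9.43 and 11.1 (10.3 ± 1.18, SD, n = 2).

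Hnrnpf and Srsf3 had 3 distal regions each. Those of Hnrnpf had conservative folds of 4.30, 6.67 and 4.56, the last within its own intron, and those of Srsf3 had 4.21, 6.55 and 3.92. The weakest Srsf3 regions were each found in only 1 replicate. The 2 regions of Prpf40b lay in introns of Fmnl3, a formin gene, 17.5 and 25.7 kb away, with 7.65 and 9.04 (8.34 ± 0.98, SD, n = 2) and with 8.77 and 8.55 (8.66 ± 0.15, SD, n = 2). Both exceeded the fold at the Prpf40b promoter itself in each replicate. Srsf5 had 2, at 50.1 and 6.67 kb upstream, with means of 7.45 ± 0.50 and 7.45 ± 0.75 (SD, n = 2). Hnrnph1 and Hnrnpu had 2 each. Prpf3, Prpf4b, Sf3a3, Sf3b1, Snrpd2, Snrpf, Srsf4, Srsf7, Srsf9, Hnrnph2 and Hnrnpll had 1 each, the last at 44.6 kb downstream.

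**Figure D5:**
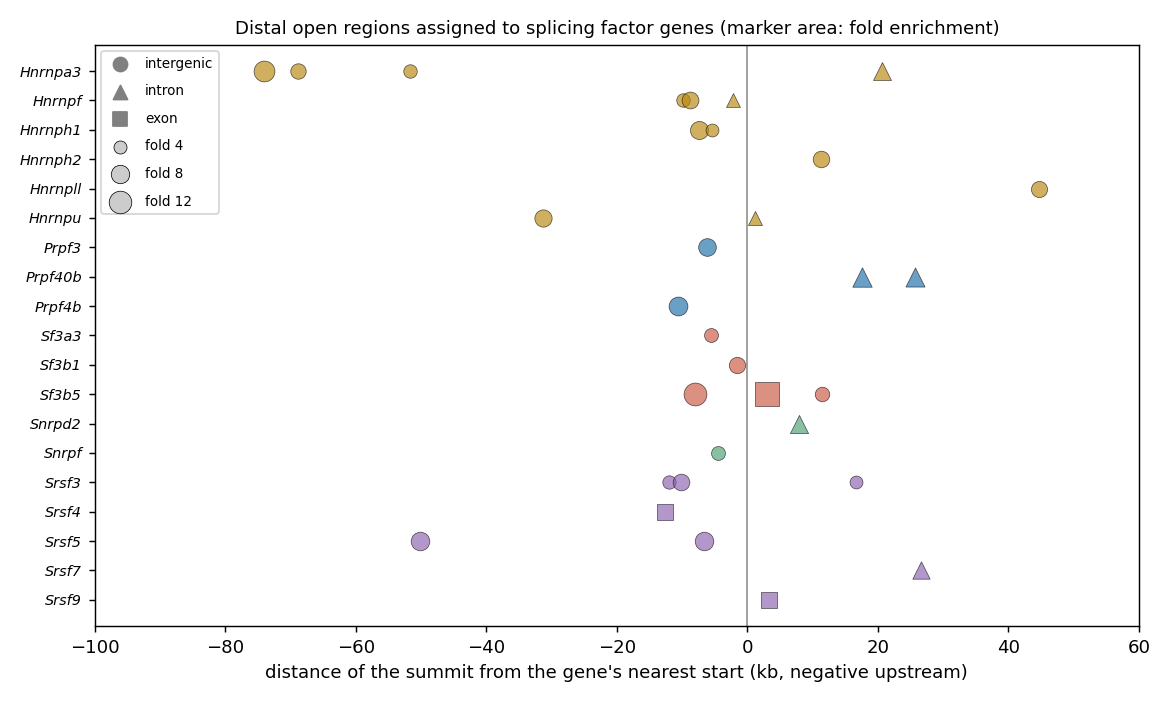
Distance of each of the 32 distal regions from the nearest start of its gene (horizontal axis, kb, negative upstream), by gene, with marker area for fold enrichment and marker shape for position. The largest markers are the 2 Sf3b5 regions (13.3 and 12.3), and the farthest region lies 74.1 kb from Hnrnpa3.

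The 201 bases around each distal summit were searched for letters of myeloid factors on both strands. Of the 32, 5 (15.6%, against 13.5% of all distal regions) held TTGCNNAA for C/EBP, 4 (12.5%, against 11.3%) TGANTCA for AP-1 and 3 (9.38%, against 11.9%) GAGGAAGT for PU.1. GAAANNGAA for IRF was found in 1 (3.13%, against 8.13%), TGTGGTT for RUNX in 0 (against 9.67%) and CCGGAAG in 2 (6.25%, against 2.85%). The region 1.57 kb upstream of Sf3b1 held the C/EBP and PU.1 letters side by side, in capitals below, and was picked after these matches were seen. It had 6.03 in replicate 1 and 6.45 in replicate 2 (6.24 ± 0.29, SD, n = 2), close to the promoter of Sf3b1 itself. Its sequence (chr1:55028950-55029150, plus strand, GRCm38.p6) is printed.
Sf3b1 upstream region: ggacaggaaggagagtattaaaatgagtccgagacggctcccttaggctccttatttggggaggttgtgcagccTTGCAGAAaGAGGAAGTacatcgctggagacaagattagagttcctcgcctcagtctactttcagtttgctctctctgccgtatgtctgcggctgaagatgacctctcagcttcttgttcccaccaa

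Several SR and hnRNP genes contain exons found only in transcripts destined for nonsense-mediated decay, by which they limit their own level. The gene models hold 35 such exons in 19 of the genes, and 1 of them, in Prpf31, overlapped an open region (2.86%, against 2.85% of the 2769 such exons of all genes). Of the 11 in 5 Srsf genes, 0 did.

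Other genes of the pathway, from lists drawn up for this work, were mostly open, except for the list of tissue-restricted regulators. For comparison, 46.6% of all genes and 79.0% of the richest CpG class were open in the conservative set. The lists were named from background knowledge, and breadth of expression was not measured. Promoters were open for 61 of 61 other spliceosome genes (median fold 10.1), 17 of 17 snRNP biogenesis genes (10.01), 15 of 15 genes of the exon junction complex and nonsense-mediated decay (9.10), 19 of 20 SR kinases and SR-related genes (9.71) and 28 of 29 other broadly expressed splicing regulators (8.68). The exceptions were Srpk3, a muscle SR kinase, and Fubp3, which had 3.48 and 5.12 in the replicates. Of 23 tissue-restricted regulators, 5 were open in the conservative set, 7 in replicate 1 and 6 in replicate 2. Those open in the conservative set were Srrm3 (10.9 and 11.2), Pcbp3 (9.20 and 9.45), Rbfox3 (6.17 and 4.77), Mbnl3 and Celf6. Nova2 (3.50 and 3.88) and Ptbp2 (3.70 and 5.50) had a promoter region in each replicate but not in the conservative set.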

How the data were processed

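ATAC-seq peak lists on mm10, per the labels, were used from 2 replicates of 1 group. Fold enrichment, a linear ratio, and −log10 p are the authors' deposited values, as is the summit position. The deposited lists hold no −log10 p under 2.00. The README of the deposited files names a further input without saying what it is. How reads were aligned, shifted for Tn5 and called as peaks is not given in the sources used here. No read counts were used, so depth is unknown and no interval is given.

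Peaks on chromosomes 1 to 19, X and Y were merged where they overlapped, keeping the highest fold, in each set. Coding starts were those of GENCODE M21 (GRCm38.p6), and a head-to-head partner starts within 1 kb in the opposite direction. A gene's replicate fold is the highest within 1 kb of a start in that replicate's pseudoreplicated set, and for distal regions the highest overlapping fold. Folds were not scaled between replicates. CpG content is the observed to expected ratio within 500 bp of the outermost 5′ start, in 5 classes. Merging and assignment were tested on simulated data.

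No test was run: with 1 group, counts and medians stand beside those of all protein-coding genes. Genes named were those not open or differing in call, the 12 strongest and 8 weakest by mean fold, the 12 with most distal regions (19 with ties), the 5 most different between replicates, up to 12 head-to-head pairs, and 16 fixed ones, and others named are lists' exceptions or examples chosen after their values were seen. The genes and lists were chosen with earlier results of these data known. Alternatives were other sets, each replicate alone, and other windows, starts, distances and joins. Python 3.11.15, numpy 2.4.6, pandas 2.3.3, pysam 0.24.0, samtools 1.23.1 and matplotlib 3.10.9 were used. Of the genes, 1 enters the counts but is not reported here by itself.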

Additional observations from a re-analysis of the deposited data

How the results depend on the processing

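Of 62 recomputed summary values, 53 stayed within 1.5 times (counts) or within the SD of the replicates' medians (0.11, folds). The open promoter counts could not rise by 1.5 times, because 61 of 65 were open in the conservative set. Changes of direction against all genes were not counted here. The open promoters numbered 58 to 63, where 39.3% to 54.8% of all genes were open. Counting starts only at the outermost 5′ end left Hnrnpm, Prpf6 and Snrpc closed as well. Under it 58 were open, beside 43.8% of all genes, and the median fold was 8.79. RefSeq starts, chosen as an alternative after the data were seen, opened Sf3b5 and closed Hnrnph1. With them 61 were open, beside 44.1% of all genes with a RefSeq start. With 5′ ends only and with RefSeq starts 26 and 28 genes had a distal region, above the share of all genes (35.4% and 37.8%), where the conservative value was below it. Leaving out 1 replicate at a time, which also uses the looser set, gave 50 and 50 distal regions and a median fold of 8.26 to 8.41. In the replicated set 30 genes had a distal region, and the replicated and pseudoreplicated sets gave 66 distal regions each, where 51.5% and 49.0% of all genes had one. For the 39 genes with no other coding start in their region, also chosen after the data were seen, the median fold was 9.35. Of 363 recomputed folds of single genes, 4 moved by more than the replicates' SD. No paired analysis was possible because there was 1 group. Peak lists without read counts leave weak regions such as that of Snrpn at an unknown detection limit.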
